A study of Mus musculus with 6 samples.

Results

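The regions described here are the ATAC-seq peaks that lay in the large gaps between protein-coding genes. A peak was taken as a member, called a far peak, when its midpoint was more than 100 kb from both ends of every protein-coding gene and outside every protein-coding gene span of the mouse RefSeq annotation (GRCm38.p6, the mm10 build). Of the 12105 peaks in the 2 lists, 606 were far peaks. The list specific to the conditional knockout (cKO) held 391 of them among its 8615 peaks, and the list specific to the control (cWT) held 215 among its 3490 peaks. Another 486 peaks had no coding gene end within 100 kb but lay inside a long coding gene, and these were not members.

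ATAC-seq marks open chromatin with the Tn5 transposase, which inserts sequencing adapters where DNA is exposed. The cells were microglia, the resident macrophages of the brain, isolated by sorting from brains of 8-week-old C57BL/6J mice. In cKO mice Mir137, which encodes the microRNA miR-137, was floxed, and the mice carried Tmem119-CreERT2. The cWT mice carried the same Cre and intact Mir137. CreERT2 is a recombinase that acts after tamoxifen and was driven here by the microglial gene Tmem119, and both genotypes received tamoxifen for 7 days, begun at 7 to 8 weeks of age. Per the labels there were 3 libraries of each genotype, each from about 50000 cells. The series gives n = 4 mice and does not tie libraries to animals.

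Gaps between coding genes, called gene deserts where they are very long, hold no protein-coding genes but many regulatory elements. Enhancers in such gaps can act on a promoter far away by looping, and clusters of them often surround genes of development and of cell identity. The gaps also carry many long noncoding RNA (lncRNA) genes, some of which are made from, or act on, the same regulatory DNA. In macrophages and microglia, factors such as PU.1, an ETS-family protein, bind distal elements of this kind together with partners such as RUNX1, C/EBP, AP-1 and IRF proteins.

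Both files give 1 value per peak and none per library, so neither replicate spread nor the depth behind a peak is known. Intervals and p-values therefore compare the 2 lists over peaks. They cover counting error only, not variation between mice, and neighbouring peaks are not independent. The signal is the authors' value for a peak, and its scale was not stated. It is used only to describe peaks. The p-value is also the authors', and what it tests was not stated. In the authors' deposited table no far peak had an adjusted p-value under 0.05, the lowest being 0.837 in the cKO list and 0.981 in the cWT list. None of the other peaks had one either, their lowest being 0.194 in the cKO list and 0.231 in the cWT list.

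Among marker genes, 23 of 26 microglial identity genes had a peak of either list inside them or within 10 kb. So did 26 of 34 microglial and myeloid transcription factor, 16 of 26 inflammation and 32 of 72 developmental transcription factor genes. The counts were 8 of 15 astrocyte, 7 of 16 oligodendrocyte, 7 of 15 vascular, 8 of 16 other macrophage and 5 of 17 lymphocyte marker genes. Another 9 of 78 genes of neuronal adhesion and synapses had one. In the cKO list alone the counts were 20 microglial identity, 20 microglial and myeloid transcription factor, 15 inflammation and 17 developmental transcription factor genes. They were 6 astrocyte, 7 oligodendrocyte, 6 vascular, 6 other macrophage, 4 lymphocyte and 8 neuronal genes. In the cWT list alone they were, in the same order, 8, 16, 3, 22, 4, 1, 3, 2, 2 and 5. The cKO list is the longer one. No share over all coding genes is set beside these counts, so they describe the lists and do not test the cell type. Peaks shared by both genotypes are not in these lists, so a gene without a specific peak is not shown to be closed.

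Sequence was read from RefSeq where a far peak touched the promoter window of an annotated lncRNA gene. In all, 16 far peaks, 13 of cKO and 3 of cWT, touched the windows of 17 lncRNA genes, a window being the 250 bases before and 50 bases after the annotated start. The peak covered the annotated start of 11 of the 17 genes and the whole window of 4. Windows of 6 genes are printed, chosen after their values were seen: the 3 with the highest-scored cKO peaks, Mexis for its known role in macrophages, and the 2 with the highest-scored cWT peaks. Morrbid is an lncRNA of myeloid cells that limits expression of its neighbour Bcl2l11, which encodes the death-promoting protein Bim. Mexis is an lncRNA beside the cholesterol exporter gene Abca1 that acts on it in mouse macrophages. Firre is an X-linked lncRNA that takes part in nuclear organisation. The other 3 genes have no role named here.

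Each window is given 5′ to 3′ on the strand of its gene, from RefSeq GRCm38.p6, and capitals mark the bases inside the far peak. The Morrbid window is chr2:128429302-128429601, minus strand, within a cKO peak. Gm46478 is at chr14:98873248-98873547, minus strand, and Gm40727 at chr10:84110235-84110534, minus strand, both with cKO peaks. The Mexis window, chr4:53270183-53270482, minus strand, was touched at its 3′ end by a cKO peak. The cWT peaks touched 1700030C10Rik at chr12:20815730-20816029, minus strand, and Firre at chrX:50635272-50635571, minus strand.
Morrbid: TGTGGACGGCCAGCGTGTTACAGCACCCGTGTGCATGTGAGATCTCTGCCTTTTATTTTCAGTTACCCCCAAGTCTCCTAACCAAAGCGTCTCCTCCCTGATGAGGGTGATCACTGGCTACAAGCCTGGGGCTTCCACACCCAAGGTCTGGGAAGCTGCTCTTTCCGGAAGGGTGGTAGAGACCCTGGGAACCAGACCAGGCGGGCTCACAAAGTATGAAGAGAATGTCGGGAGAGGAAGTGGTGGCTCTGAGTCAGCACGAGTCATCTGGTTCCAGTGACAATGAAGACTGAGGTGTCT
Gm46478: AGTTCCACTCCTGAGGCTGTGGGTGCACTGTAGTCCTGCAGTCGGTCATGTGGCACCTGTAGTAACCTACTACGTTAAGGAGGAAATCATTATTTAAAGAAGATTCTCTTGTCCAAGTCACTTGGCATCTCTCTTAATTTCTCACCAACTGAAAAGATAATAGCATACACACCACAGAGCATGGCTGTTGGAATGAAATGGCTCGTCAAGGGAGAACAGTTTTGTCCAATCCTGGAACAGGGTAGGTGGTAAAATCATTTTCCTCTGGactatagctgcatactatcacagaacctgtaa
Gm40727: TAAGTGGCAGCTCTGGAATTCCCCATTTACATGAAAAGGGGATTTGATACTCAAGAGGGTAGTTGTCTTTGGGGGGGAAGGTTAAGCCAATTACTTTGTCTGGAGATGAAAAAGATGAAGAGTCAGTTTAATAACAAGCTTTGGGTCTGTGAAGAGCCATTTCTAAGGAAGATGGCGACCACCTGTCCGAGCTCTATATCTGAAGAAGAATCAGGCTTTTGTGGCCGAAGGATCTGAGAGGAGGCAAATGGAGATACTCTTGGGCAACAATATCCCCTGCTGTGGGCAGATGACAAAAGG
Mexis: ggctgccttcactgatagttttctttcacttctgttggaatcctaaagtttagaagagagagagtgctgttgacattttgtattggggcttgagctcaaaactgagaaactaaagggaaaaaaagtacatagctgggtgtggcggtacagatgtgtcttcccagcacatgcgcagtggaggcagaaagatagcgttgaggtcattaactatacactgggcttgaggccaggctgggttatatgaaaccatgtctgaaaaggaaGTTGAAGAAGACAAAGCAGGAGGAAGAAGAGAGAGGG
1700030C10Rik: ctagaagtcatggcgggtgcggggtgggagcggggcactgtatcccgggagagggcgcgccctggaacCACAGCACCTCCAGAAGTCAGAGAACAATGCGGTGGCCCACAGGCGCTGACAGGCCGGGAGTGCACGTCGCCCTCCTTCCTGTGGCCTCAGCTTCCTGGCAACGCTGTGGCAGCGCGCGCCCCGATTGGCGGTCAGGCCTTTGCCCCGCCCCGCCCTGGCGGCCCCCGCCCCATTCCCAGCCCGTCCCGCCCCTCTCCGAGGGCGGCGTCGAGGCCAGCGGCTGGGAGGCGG
Firre: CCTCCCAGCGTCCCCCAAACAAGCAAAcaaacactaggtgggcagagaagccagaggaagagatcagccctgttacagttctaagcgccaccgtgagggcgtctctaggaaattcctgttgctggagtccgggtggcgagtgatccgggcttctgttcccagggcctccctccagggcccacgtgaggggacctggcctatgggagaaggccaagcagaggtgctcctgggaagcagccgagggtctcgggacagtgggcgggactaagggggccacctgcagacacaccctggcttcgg

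The printed windows differ in how much of them the peak covered. The peak spanned all 300 bases of the Morrbid and Gm40727 windows and 268 of those of Gm46478. It covered 37 bases of the Mexis window, 232 of the 1700030C10Rik window and 27 of the Firre window. The 1700030C10Rik window was the richest in G and C of the 17, at 72.7%, with 29 CpG dinucleotides. Over the 17 windows the median was 53.0% G and C and 7 CpG, and over all 32851 RefSeq promoter windows it was 52.7% and 7.

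Both strands of the windows were searched for short motifs, and a match is a description of letters, not a bound site. A match can lie outside the part of the window that the peak covered. The 17 windows are lncRNA promoters touched by a far peak, while the set beside them is all RefSeq promoters, touched or not. Shares in windows touched by peaks that are not far are not given here. The shares are therefore not shown to be particular to far peaks. GAGGAAGT, a form of the PU.1 motif, was found in 4 of the 17 windows (23.5%), against 3.20% of all promoter windows. The 4 genes were Morrbid, Gm38838, Gm34418 and Gm46343, all with cKO peaks, and all 4 had the match inside the peak. Of the 16 far peaks that touched a window, 13 were of cKO, so these matches do not set the genotypes apart. The ETS core AGGAAG, which lies within that motif, was in 13 windows (76.5%), against 35.4% of all, and inside the peak in 11. The KLF motif GGGNGTGG was in 4 windows (23.5%), against 17.6% of all, and inside the peak in Morrbid alone. Among these, the Gm31676 and LOC115487949 windows overlap under the same cKO peak. Their KLF matches are the same sites, counted in both windows. The AP-1 motif TGANTCA was in 2 (11.8%), against 7.81%, and inside the peak in both. The RUNX motif TGTGGTT was in 2 (11.8%), against 5.27%, and inside the peak in 1. TTGCNNAA, a C/EBP motif, was in 2 (11.8%), against 10.8%, and inside the peak in both. An IRF motif was in 2 (11.8%), against 3.44%, and inside the peak in 1. The E-box CACGTG and the longer TCACGTG that contains it were in the Firre window only (5.88%), against 7.15% and 3.77% of all, and lay outside the peak there. Matches to the MEF2, CTCF and Smad (GTCTAGAC) motifs were in 0 of the 17, against 1.68%, 0.0609% and 0.213% of all windows. In the Morrbid window the PU.1 match began at base 234 and the AP-1 match at base 250, counted from the 5′ end, both near the annotated start, which follows base 250.

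Far peaks made up a smaller share of the cKO list than of the cWT list. They were 4.54% of cKO peaks (391 of 8615, exact 95% interval 4.11 to 5.0) and 6.16% of cWT peaks (215 of 3490, 5.39 to 7.01). The odds ratio was 0.724 (0.609 to 0.864, two-sided Fisher's exact test, p = 0.000273, adjusted p = 0.00191 by Benjamini-Hochberg over the 7 single tests). The cKO list was the longer one in both places. There were 1.82 cKO far peaks for each cWT far peak (1.54 to 2.16) and 2.51 for each (2.41 to 2.62) among the other 11499 peaks. The call was lost among the few peaks with an authors' p-value up to 0.5 (odds ratio 0.608, 30 cKO and 10 cWT far peaks, exact p = 0.198) and when distance was taken from all annotated genes, noncoding ones included (0.810, 32 cKO and 16 cWT peaks, exact p = 0.523).

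**Figure D1:**
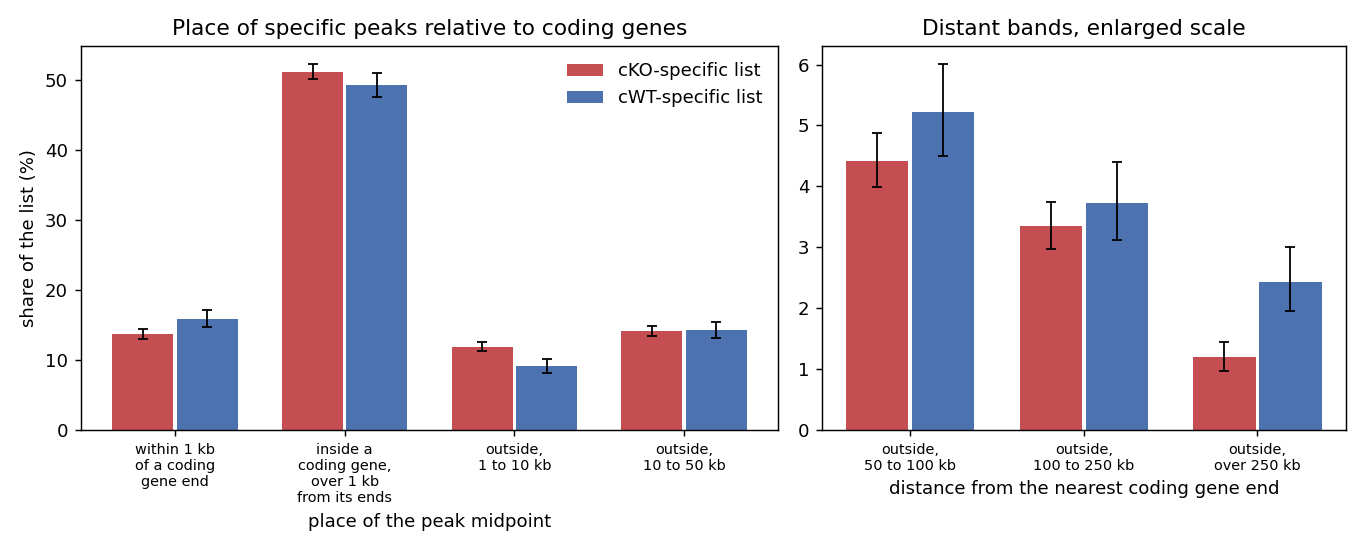
Share of each list (y axis, percent of the list's peaks) by place relative to coding genes (x axis), with cKO to the left of cWT in each pair and exact 95% binomial intervals as error bars; the right panel has an enlarged scale. Beyond 250 kb the shares are 1.20% of cKO and 2.44% of cWT peaks, while between 1 and 10 kb they are 11.9% and 9.17%.

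The ratio of the lists was lowest for the most remote peaks, as the plot of peaks by place shows. At 1 to 10 kb from a coding gene end there were 3.21 cKO peaks for each cWT peak. At 100 to 250 kb there were 2.22, from 288 cKO and 130 cWT far peaks. Beyond 250 kb there were 1.21, from 103 cKO and 85 cWT far peaks. Among far peaks alone, 26.3% of cKO (103 of 391) and 39.5% of cWT (85 of 215) lay beyond 250 kb (odds ratio 0.548, 0.378 to 0.793, Fisher's exact test, p = 0.000944, adjusted p = 0.0033). Among peaks that reached their list's median score the odds ratio was 0.652 and missed the threshold (exact p = 0.135). The most remote peaks were more numerous in cWT even by count, with 15 cKO and 23 cWT peaks beyond 500 kb, and 2 cKO and 8 cWT peaks beyond 1 Mb.

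**Figure D2:**
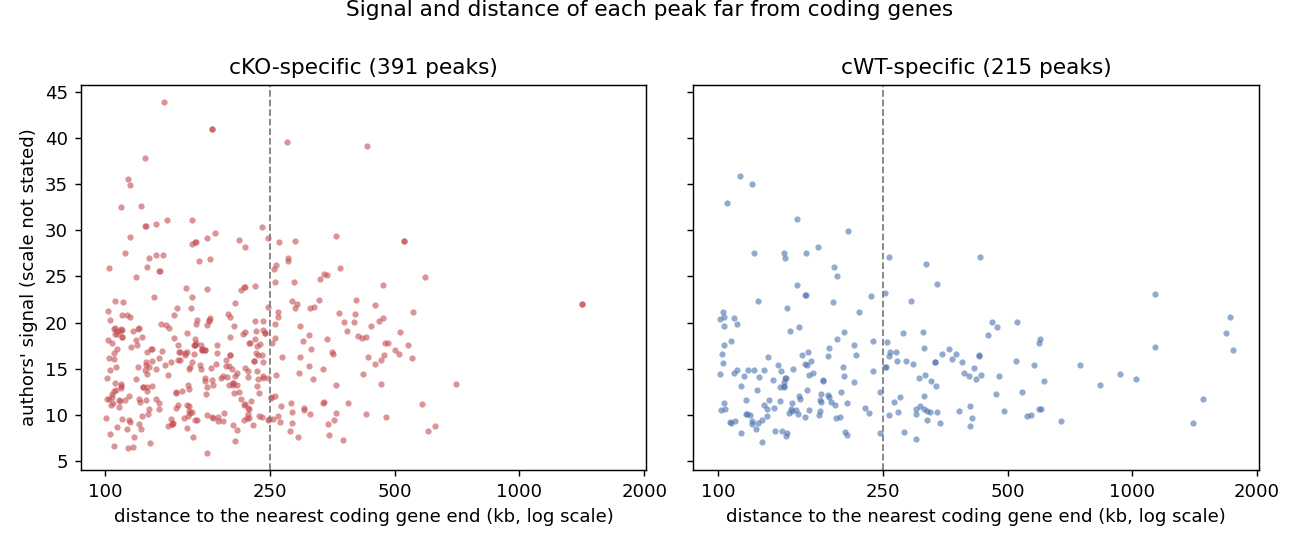
Authors' signal of each far peak (y axis, scale not stated) against its distance from the nearest coding gene end (x axis, kb, log scale), with 1 point per peak, cKO in the left panel, cWT in the right and a dashed line at 250 kb. The share of points right of the line is 26.3% in cKO and 39.5% in cWT.

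The farthest cKO peaks were adjoining peaks at chr1:101902162-101902485 and chr1:101902486-101902696, 1411724 and 1411992 bp from a gene end, between Cntnap5b, a neurexin-family gene, and Cdh20, a cadherin gene. Both carried the signal 22.1. The next were at chr10:37841981-37842281, 703205 bp away between Marcks, an actin-associated kinase substrate, and Rfpl4b, at chr6:110020197-110020396, 625053 bp away, and at chr18:81587915-81588109, 600991 bp away. In cWT the farthest were chr2:46871088-46871459, 1753831 bp away with a signal of 17.1, and chr2:47088682-47089182, 1725177 bp away with a signal of 20.6. Both lay between Zeb2, a repressor needed for the identity of macrophages, and the activin receptor gene Acvr2a. The others were at chr6:75196967-75197441 (1684433 bp), chr8:6590016-6590328 (1484885 bp) and chr7:53433280-53433626 (1401792 bp).

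Specific peaks of both lists were sparse in the far territory. That territory, the DNA over 100 kb from every coding gene, made up 738 Mb of 2600 Mb (28.4%) of the chromosome spans between the outermost coding genes. It held 0.530 cKO and 0.291 cWT peaks per Mb, against 4.42 and 1.76 per Mb in the rest. The far density was thus 0.120 of the remaining density in cKO and 0.166 in cWT. Peaks shared by both genotypes are not in the lists, so these densities do not describe all open chromatin. Unsequenced or unmappable DNA was not taken out of the territory.

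Width did not separate far peaks from the rest by the test. The median width was 322 bp in cKO (146 to 1419) and 331 bp in cWT (159 to 742), against 313 and 321 bp in the other peaks. The share wider than the list's median was 51.9% of far and 49.8% of other cKO peaks (by Fisher's exact test an odds ratio of 1.09, 0.885 to 1.34, with an adjusted p of 0.539). In cWT it was 52.6% of far and 49.7% of other peaks (by the same exact test 1.12, 0.841 to 1.49, with an adjusted p of 0.539). The median signal was 16.2 in cKO far peaks and 16.5 in the other cKO peaks, and 14.2 in cWT far peaks and 13.7 in the other cWT peaks.

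Low authors' p-values were rarer among far peaks of cKO. A p-value up to 0.5 was given to 30 of 391 cKO far peaks (7.67%), against 1012 (12.3%) of the other cKO peaks and 12.1% of the whole list (odds ratio 0.592, 0.392 to 0.866, Fisher's exact test, p = 0.0053, adjusted p = 0.0124). Among cKO peaks that reached the list's median score the odds ratio was 0.770 and missed the threshold (exact p = 0.246). The score follows from the p-value, so that setting is not an independent check of this share. In cWT 10 of 215 far peaks (4.65%) had one, against 205 (6.26%) of the others and 6.16% of the whole list. That difference did not pass the test (by Fisher's exact test an odds ratio of 0.731, 0.340 to 1.40, with an adjusted p of 0.539). Peaks that the authors named primary, those with the lowest p-values, were 4 of the cKO far peaks (1.02%, against 2.82% of the list) and 2 of the cWT far peaks (0.930%, against 1.38% of the list).

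Among the 5 highest-scored far peaks of cKO, the first was the peak over the Morrbid start. It lay at chr2:128428638-128430056 with a signal of 28.5 and a p-value of 0.133, and at 1419 bp it was the widest of all far peaks. The second, chr10:98792118-98792750, with a p-value of 0.155, lay between Ccer1 and Atp2b1, the gene of a plasma-membrane calcium pump. The third, chr13:28617898-28618125, with a p-value of 0.165, lay inside the lncRNA gene 2610307P16Rik on the side of Sox4, a developmental transcription factor. The fourth, chr15:62152220-62152964, with a p-value of 0.213, lay inside Pvt1, the lncRNA gene next to the growth regulator Myc. The fifth, chr15:96818308-96819011, lay between the amino acid transporter genes Slc38a2 and Slc38a4.

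In cWT the highest-scored far peak, chr13:28419916-28420212, with a p-value of 0.212, lay inside the lncRNA gene Gm40841, in the same gap as the third cKO peak. The next were chr12:20990056-20990797 inside Gm30124, with a p-value of 0.221 and a width of 742 bp, the widest in cWT, and chr12:20920719-20921400 inside 3110053B16Rik. The last of the 5 were chr4:89524979-89525243, between the cell-cycle inhibitor gene Cdkn2b and Dmrta1, and chr13:37541253-37541615 inside Lncbate6, between the immune receptor subunit gene Ly86 and Rreb1. The other wide far peaks were chr18:79256256-79257372 (1117 bp) and chr10:37248536-37249598 (1063 bp) in cKO, and chr13:97441987-97442713 inside Lncenc1 (727 bp) and chr13:28843263-28843963 (701 bp) in cWT.

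Just inside the 100 kb limit were peaks 100646 bp from Cspg4b (cKO, signal 9.71), 100840 bp from Rybp (cWT, signal 20.4) and 100984 bp from Ptprn2 (cKO, signal 14.0). Just outside it were cKO peaks 99970 bp from Ibtk (signal 7.21), 99969 bp from Ifngr1 (signal 20.3) and 99936 bp from Pabpc2 (signal 24.6).

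No chromosome departed from the overall balance of far peaks after adjustment. By Fisher's exact test with Benjamini-Hochberg adjustment, 0 of 20 chromosomes passed, the lowest adjusted p being 0.104. Unadjusted, 2 had an exact p under 0.05. Chromosome 18 held 6 cKO and 12 cWT far peaks (odds ratio 0.264, exact p = 0.00996). Chromosome 10 held 60 cKO and 17 cWT far peaks (odds ratio 2.11, exact p = 0.0104), or 1.77 cKO and 0.502 cWT peaks per Mb of its far territory. Chromosome 13 followed with 46 cKO and 24 cWT far peaks.

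**Figure D3:**
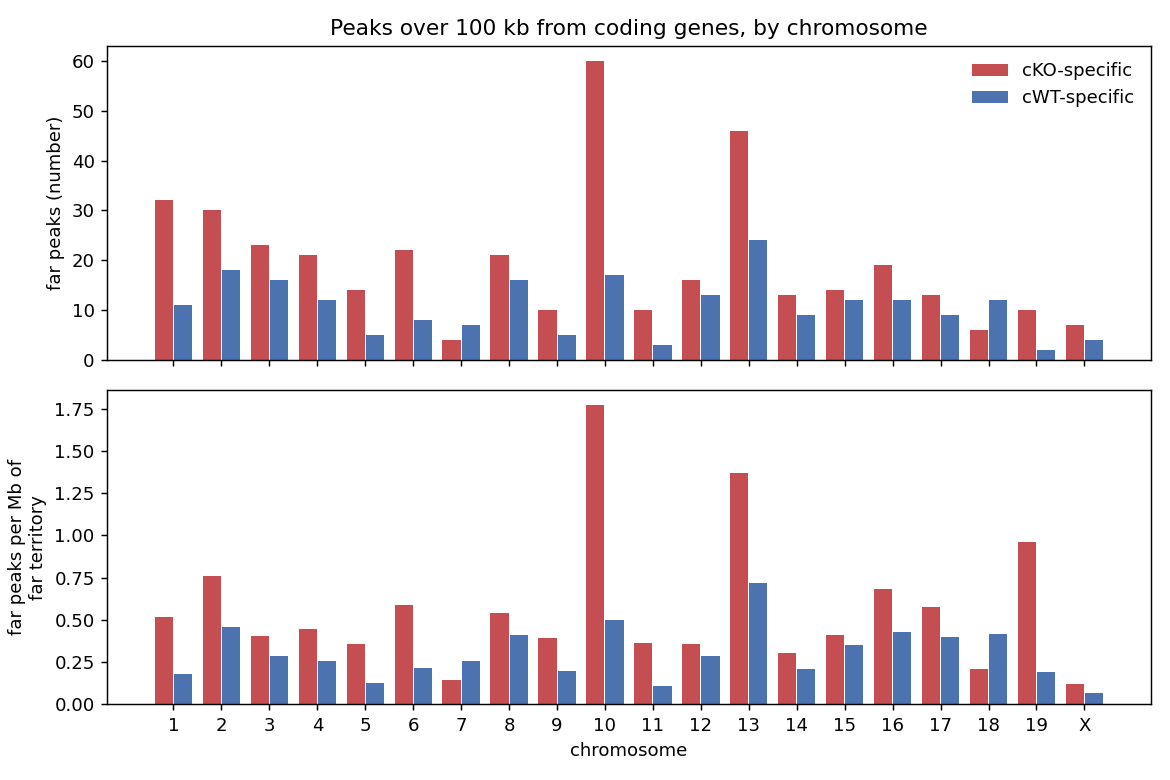
Number of far peaks (upper panel, y axis) and far peaks per Mb of far territory (lower panel, y axis) on each chromosome (x axis), cKO to the left of cWT. Chromosome 10 has 60 cKO and 17 cWT far peaks, or 1.77 and 0.502 per Mb, and no chromosome passed the adjusted test.

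Many far peaks shared a gap with others. Of 1537 stretches over 200 kb between neighbouring coding genes, 262 held a far peak. In 108 of these the far peaks were of cKO alone, in 84 of cWT alone and in 70 of both. A single far peak was found in 134 stretches, which could therefore be of 1 genotype only, and 2 in another 55. Peaks nearer to genes are not counted in this split, and some stretches with far peaks of 1 genotype held such peaks of the other. The 35 stretches with at least 5 held 232 far peaks, 175 of cKO and 57 of cWT. In 28 of the 35 cKO peaks were more numerous, in 4 cWT peaks were, and in 3 the numbers were equal. These stretches were picked by the same counts, so their balance is a description only.

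The largest number in any stretch was 9, reached by 6 stretches. The gap between Dusp6, which encodes a phosphatase of the ERK kinases, and Csl held 9 cKO and 0 cWT far peaks between chr10:99380070 and chr10:99632832, with signals from 8.46 to 26.0. The gap between Klf14, a transcription factor gene, and Mkln1 also held 9 cKO and 0 cWT far peaks, with signals from 6.48 to 28.2. The gap between Aldh8a1, an aldehyde dehydrogenase gene, and Sgk1, which encodes a stress-induced kinase, held 8 cKO and 1 cWT. The gap between Runx1, a master regulator of blood cell formation, and Setd4 held 7 cKO and 2 cWT. Another 7 cKO and 2 cWT lay between the cadherin gene Cdh26 and 4930591A17Rik, and 6 cKO and 3 cWT between Gm5148 and Ankrd50. Beside them, and chosen after their values were seen, 7 cKO and 0 cWT far peaks lay between Id2 and Rnf144a. Id2 encodes an inhibitor of basic helix-loop-helix factors. The Id2 far peaks had signals from 9.11 to 21.7, and 3 of them lay inside the noncoding gene Gm36723. With peaks nearer to genes included, the Dusp6, Klf14 and Id2 gaps held 10, 12 and 9 cKO peaks and 1 cWT peak each. The Klf14 and Gm5148 gaps each include 1 pair of adjoining cKO far peaks, counted here as separate peaks.

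**Figure D4:**
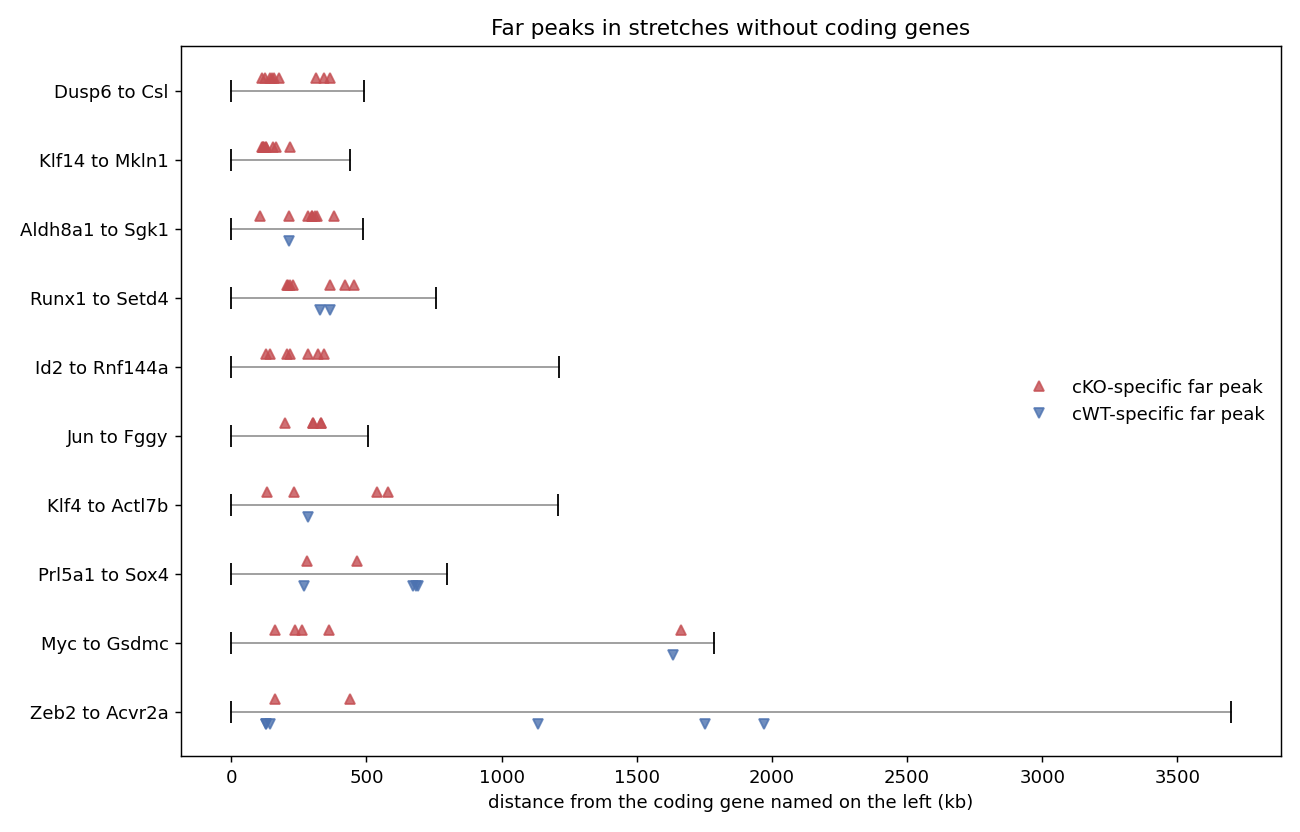
Far peaks (triangles, cKO above the line and cWT under it) in the stretches named on the y axis, by distance from the left coding gene (x axis, kb), with bars at both coding genes. The Dusp6 and Klf14 stretches hold 9 cKO and 0 cWT far peaks each, and the Zeb2 stretch holds 2 cKO and 6 cWT.

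The stretch beside Klf14 carried named noncoding genes. Of its 9 cKO far peaks, 3 lay inside Lncpint, a p53-induced lncRNA. Of the same 9, 4 lay 9109 to 18665 bp from the hairpins of Mir29a and Mir29b-1, microRNAs known to repress collagen and other matrix mRNAs. The highest-scored of the 9, chr6:31176404-31176746 inside Lncpint, had a signal of 28.2 and a p-value of 0.282. The other 8 had p-values from 0.668 to 0.965. The mature microRNAs from the 3′ arms are given from RefSeq, chosen after the peaks were seen, because they share 1 seed (bases 2 to 8, in capitals) and are transcribed from the minus strand of chromosome 6.
miR-29a-3p: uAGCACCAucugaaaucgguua
miR-29b-3p: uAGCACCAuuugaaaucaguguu

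The stretch richest in cWT far peaks was that between Zeb2 and Acvr2a, with 2 cKO and 6 cWT. Its 3 cWT peaks nearest to Zeb2, 127545 to 144314 bp away, lay inside the noncoding RNA gene Vis1 with signals of 7.03, 14.9 and 27.5. A cKO peak with a signal of 10.2 lay in Vis1 as well, 160357 bp from Zeb2. The other 3 cWT peaks were over 1 Mb from any coding gene end. Next came 4 stretches with 4 cWT far peaks. That between Csmd3, a gene of neuronal development, and Trps1, a GATA-type repressor gene, held 4 cWT and 0 cKO far peaks. The stretch between Zfp608 and Gramd3 also held 4 cWT and 0 cKO far peaks. With peaks nearer to genes included, it held 5 cWT and 1 cKO. The gap between Prl5a1 and Sox4 held 2 cKO and 4 cWT, and that between Plk2, a stress-responsive kinase gene, and Actbl2 held 3 cKO and 4 cWT. In the Csmd3 stretch the peak chr15:48905414-48905595 had the highest signal of all cWT far peaks, 35.9.

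Noncoding genes were common at far peaks in both genotypes. A noncoding gene lay within 10 kb of 182 of 391 cKO far peaks (46.5%) and 98 of 215 cWT far peaks (45.6%), a difference that did not pass the test (by Fisher's exact test an odds ratio of 1.04, 0.734 to 1.47, with an adjusted p of 0.865). Among the other peaks the shares were 33.2% in cKO (2728 of 8224) and 32.6% in cWT (1068 of 3275). Far peaks lay inside an lncRNA gene in 25.6% of cKO (100 of 391) and 22.3% of cWT (48 of 215), against 10.7% and 10.9% of the other peaks. The differences between far and other peaks in these 2 shares were not tested. Far peaks lie outside coding genes by rule. In the whole lists, 51.2% of cKO and 49.3% of cWT peaks lay inside a coding gene, over 1 kb from its ends. The shares therefore compare unlike places, and the part of the far territory covered by noncoding genes is not given here. No noncoding gene lay within 100 kb of 32 cKO (8.18%) and 16 cWT (7.44%) far peaks, against 8.54% and 9.56% of the other peaks. Of the 28056 annotated noncoding genes, 246 had a far peak inside or within 10 kb. They included 193 lncRNA genes, 25 pseudogenes and 5 microRNA genes. Shares within each kind of gene are not given here, so these counts do not show that any kind was favoured.

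The noncoding genes with the most far peaks were Gm30382, between the adhesion receptor genes Adgrl2 and Adgrl4, with 3 cKO and 3 cWT, Morrbid with 5 cKO and 0 cWT, and Lncpint with 5 cKO and 0 cWT. Gm3716 followed with 4 cKO and 0 cWT, Gm31813 with 2 of each, and 2610307P16Rik and Vis1 with 1 cKO and 3 cWT each. At Morrbid, 3 peaks lay inside the gene and 2 within 10 kb of it. Besides the peak over its start, their signals were 9.95 to 15.9 with p-values from 0.878 to 0.957. Pvt1 held 3 cKO far peaks, with signals of 31.1, 13.9 and 28.7 and p-values of 0.213, 0.922 and 0.480.

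Coding genes on either side of the long gaps were then grouped by function. Of the 2599 coding genes that border a stretch over 200 kb, 506 (19.5%) had at least 1 far peak in it, 346 (13.3%) a cKO far peak and 302 (11.6%) a cWT far peak. Among myeloid transcription factors, 9 of 13 bordering genes (69.2%) had one, 7 with cKO and 5 with cWT far peaks. They were Runx1, the AP-1 subunit gene Jun, Klf4, Maf, Zeb2, Mef2c, the C/EBP gene Cebpb, Klf6 and Ets1. Jun bordered 5 cKO and 0 cWT far peaks, Klf4 4 cKO and 1 cWT, and Maf, a driver of the homeostatic macrophage state, 3 cKO and 0 cWT. The Runx1 peaks had signals from 10.8 to 21.0 in cKO and of 13.7 and 16.1 in cWT. At Klf4 the cKO peaks lay 132633 to 581530 bp from the gene, with signals of 30.6, 16.7, 17.6 and 11.2, and the cWT peak lay 284064 bp away with a signal of 15.9. All 3 Maf far peaks lay inside the noncoding gene Gm39256, 104881 to 120880 bp from Maf, with signals of 19.5, 19.4 and 6.70. The Jun far peaks include 2 adjoining pairs with the same signal within each pair. With peaks nearer to genes included, the gap between Wwox and Maf held 6 cKO and 2 cWT peaks. That between Jun and Fggy held 6 cKO and 0 cWT peaks. The list is small, gap lengths differ between genes, and the share was not tested.

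**Figure D5:**
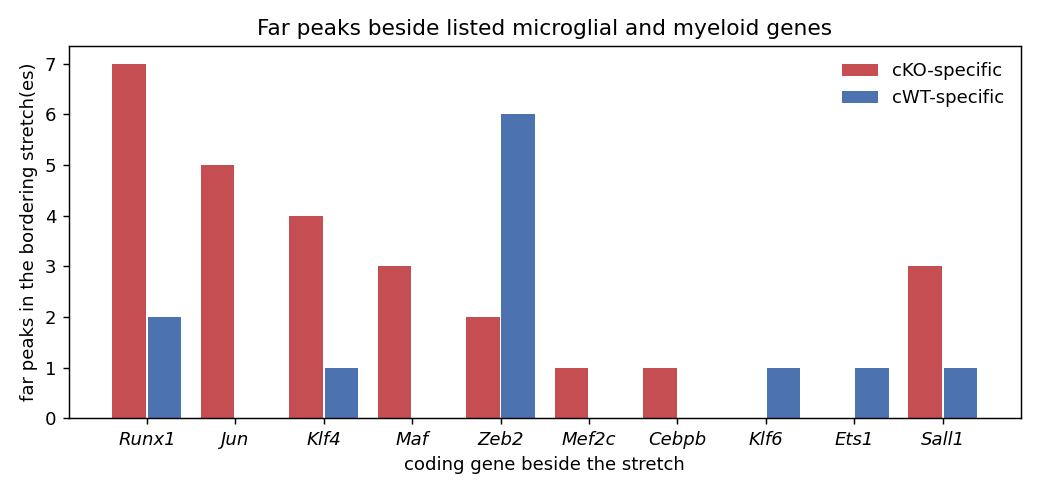
Number of far peaks (y axis) in the stretches bordered by each listed myeloid transcription factor gene with at least 1 far peak, and by Sall1 (x axis), cKO to the left of cWT. Runx1 has 7 cKO and 2 cWT, Jun 5 cKO and 0 cWT, and Zeb2 2 cKO and 6 cWT.

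Of the 60 bordering genes of developmental transcription factors, 21 (35.0%) had a far peak, 16 with cKO and 14 with cWT. Myc bordered 5 cKO and 1 cWT, Sox4 2 cKO and 4 cWT, and Sall3 3 of each. Genes of neuronal adhesion and synapses were near the background, with 12 of 70 (17.1%), 7 with cKO and 6 with cWT. Cdh20 bordered 4 cKO and 0 cWT, Csmd3 0 cKO and 4 cWT, and Cdh18 2 cKO and 1 cWT.

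The remaining lists bordered few long gaps. Sall1, a transcription factor that defines microglia, was the 1 of 3 bordering microglial identity genes with far peaks, 3 of cKO and 1 of cWT on its 2 sides, and its cKO peak chr8:89317998-89318309 had a signal of 39.6 and a p-value of 0.465. Of 6 inflammation genes only Tnfaip3, an inhibitor of NF-kB signalling, had a far peak, from cKO. The astrocyte list had 1 of 5 (the connexin gene Gja1, cWT), the vascular list 1 of 2 (Cdh5, cWT) and the lymphocyte list 1 of 2 (Ebf1, cWT). The oligodendrocyte list had 0 of 2 and the list of other macrophages 0 of 3.

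Specific peaks of both genotypes could share an edge. A far peak of cKO overlapped a cWT peak by at least 1 bp in 9 cases, which was 2.30% of cKO far peaks (2.14% over the whole cKO list) and 4.19% of cWT far peaks (5.27% over the whole cWT list). The longest overlap was 132 bp, between Zc3h12c, which encodes an RNase that degrades inflammatory mRNAs, and AI593442, and it covered 28.1% of the smaller peak. The signal there was 20.2 in the cKO peak and 19.6 in the cWT peak. The next overlaps were 120 bp between Tbc1d5 and the chromatin organiser gene Satb1, and 49 bp between H2al1j and the repressor gene Bcor. Then came 37 bp between Slc22a12 and Rps6ka4, and 35 bp between Pmepa1 and 1700021F07Rik. In the gap between Tbc1d5 and Satb1 the signal was 26.2 in the cKO peak and 27.1 in the cWT peak. The median distance to the nearest peak of the other genotype was 163665 bp from a cKO far peak and 106342 bp from a cWT far peak, and 63.2% of cKO and 51.6% of cWT far peaks had none within 100 kb. Over the whole lists the medians were 98665 bp for cKO and 37619 bp for cWT peaks, and 49.7% of cKO and 27.9% of cWT peaks had none. A cKO peak is measured against the shorter cWT list, and a cWT peak against the longer cKO list, so the genotypes are not compared in this distance.

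Some far peaks were immediate neighbours. In cKO 14 pairs of far peaks adjoined each other, against 1 pair in cWT, and all 15 pairs carried the same signal. Over the whole lists, 248 pairs adjoined among the 8615 cKO peaks and 51 among the 3490 cWT peaks. With peaks within 500 bp merged, the far regions numbered 367 in cKO and 212 in cWT.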

How the data were processed

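ATAC-seq of sorted microglia was deposited as 1 list of specific peaks per genotype, grouped here by the sample titles (3 libraries each, 6 in all). The lists have no header. The score that the authors deposited follows from the p-value in all 12105 peaks, and the signal that the authors deposited has no stated scale. The p-value and adjusted p-value were deposited by the authors, with no statement of what they test. The submitters' processing notes name HOMER 4.11, MACS2 2.2.7.1 and Bowtie2 2.4.4, and the builds GRCm38 and mm10. The step of each, any pooling of replicates and how specific peaks were picked are not stated there, so a longer list may come from deeper or cleaner libraries, which was not tested.

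Gene spans came from RefSeq GRCm38.p6 (21883 coding, 28056 noncoding genes, without strand). Distances run from a peak's midpoint. A stretch is the gap between neighbouring coding genes, and territory is measured in the same gaps. No filter was applied. The result of 1 stretch is not reported here. Shares have exact (Clopper-Pearson) intervals. The 7 single comparisons and the 20 chromosomes used two-sided Fisher's exact tests, each family adjusted by Benjamini-Hochberg. The code was checked on simulated counts of independent peaks, so that check does not cover the clustering of neighbouring peaks. The 10 gene lists (316 entries: microglial identity, myeloid and developmental transcription factors, inflammation, neuronal adhesion, astrocyte, oligodendrocyte, vascular, other macrophage and lymphocyte genes) are described by counts only.

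Members, lists and tests were chosen with earlier results of these data known. The text names the 5 highest-scored, 5 farthest and 3 widest far peaks per list, the 6 stretches with the most far peaks and 3 (with ties) with the most of cWT, 5 noncoding genes (with ties), 5 overlaps, up to 3 genes per list, and 3 peaks on each side of the limit. The printed windows, Mir29a, Mir29b-1, Pvt1, Id2 and the myeloid factors after the first 3 were chosen after their values were seen. No genome of this build was used here, so sequence inside other far peaks was not read. Alternatives covered the distance limit, gene set, merging, score, p-value and chromosomes. Python 3.11.15, numpy 2.4.6, pandas 2.3.3, scipy 1.17.1 and matplotlib 3.10.9 were used.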

Additional observations from a re-analysis of the deposited data

How the results depend on the processing

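The lower share of far peaks in the cKO list kept its direction under every alternative tried. The odds ratio missed the test's threshold with peaks far from all annotated genes, noncoding included (0.810, 32 cKO and 16 cWT peaks, Fisher's exact p = 0.523), with authors' p-values up to 0.5 (0.608, 30 and 10 peaks, exact p = 0.198) and with primary peaks (0.387, 4 and 2 peaks, exact p = 0.258). These keep few peaks. Leaving out each chromosome in turn, which was chosen after seeing the data, gave 0.663 (without chromosome 10) to 0.749 (without chromosome 18), each with an exact p of 0.00144 or less. With only the peaks that reached their list's median score, the share beyond 250 kb (0.652, exact p = 0.135) and the share of low p-values in cKO (0.770, exact p = 0.246) missed the threshold, and the odds ratio for a noncoding gene within 10 kb turned to 0.799. The odds ratio of wide peaks turned to 0.982 in cKO and 0.945 in cWT for peaks beyond 200 kb, and to 0.947 in cKO at the upper quartile of width, and no such value passed the test. The cause of these shifts was not tested. The score follows from the p-value, so the median-score setting removed only peaks with higher p-values. All 30 far and 1012 other cKO peaks with a p-value up to 0.5 stayed. For that share the setting is therefore not an independent check. The count of chromosomes past the adjusted test was 0 under all 5 alternatives. No paired analysis was possible because values for single libraries are not in the lists used here, and leaving out single replicates was not run for the same reason. The depth behind each peak is unknown.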
